A study of Mus musculus with 6 samples.

Results

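The olfactory receptor cluster windows are 3 stretches of the mouse genome that an array of tiled probes covered with 3574 of its 174638 non-control probes. Members were all probes whose start, on mouse build mm9, lay inside chr2:85000000-90250000, chr7:109550000-112450000 or chr9:37400000-40200000. The interval chr7:110930000-111020000, which holds the beta globin genes, was left out. This gave 1687 members on chromosome 2, 1027 on chromosome 7 and 860 on chromosome 9. The rule used positions only, no measured value, but was chosen with earlier results of these data known.

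The array measured DNA methylation in the pancreas of mice aged 12 weeks by methylated DNA immunoprecipitation (MeDIP), in which an antibody pulls down methylated fragments that are then hybridised beside input DNA of the same sample. One group of 3 arrays held offspring of dams with maternal glucose intolerance, which the series text calls hyperglycemic. The other 3 arrays held offspring whose dams had normal glucose tolerance. The labels give no strain, no way by which the intolerance was brought about and no sex. Nor do they state if the replicates are different animals, mothers or litters, and a p-value here therefore covers spread among these 6 samples that could be technical. The series asks whether methylation in the offspring pancreas differs with the glucose tolerance of the dam.

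Olfactory receptors are the odorant receptors of the nose and form the largest gene family of the mouse, packed into clusters on many chromosomes. Each mature olfactory sensory neuron expresses 1 allele of 1 receptor gene, and in most other tissues, the pancreas among them, the clusters lie in silent chromatin. Their promoters lack CpG islands, and since MeDIP recovers DNA in proportion to its methylated CG sites, a stretch with few CG sites gives little pulled-down DNA even where every site is methylated.

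That scarcity is visible in the promoter sequences of the family. In the RefSeq table for build GRCm38.p6, the 250 bases before the start of olfactory receptor genes held a median of 1 CG (the dinucleotide, which reads the same on both strands), against 6 before other genes. The largest cluster of such genes (neighbours at most 1 Mb apart) had 187 promoters on chromosome 2, 109 on chromosome 7 and 80 on chromosome 9. No CG at all was found in 46.0%, 41.3% and 43.8% of them, against 6.79% of the promoters of other genes, and 92.1% of all promoters held at least 1. The 4 sequences that follow are shown so that this scarcity can be read directly, with CG in capitals and the rest in lower case. Olfr67 (chr7:103791831-103792080, minus strand) and Olfr66 (chr7:103882242-103882491, minus strand) are the receptor genes that border the beta globin genes in the RefSeq order. Olfr1128 (chr2:87545543-87545792, minus strand) and Olfr902 (chr9:38448542-38448791, plus strand) have the median CG count and the median GC percent of the chromosome 2 and chromosome 9 clusters.
Olfr67: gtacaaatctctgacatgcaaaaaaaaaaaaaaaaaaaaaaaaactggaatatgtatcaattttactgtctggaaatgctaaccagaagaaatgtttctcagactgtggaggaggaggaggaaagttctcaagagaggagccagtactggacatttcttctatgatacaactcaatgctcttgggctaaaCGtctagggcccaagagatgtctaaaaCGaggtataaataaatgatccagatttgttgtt
Olfr66: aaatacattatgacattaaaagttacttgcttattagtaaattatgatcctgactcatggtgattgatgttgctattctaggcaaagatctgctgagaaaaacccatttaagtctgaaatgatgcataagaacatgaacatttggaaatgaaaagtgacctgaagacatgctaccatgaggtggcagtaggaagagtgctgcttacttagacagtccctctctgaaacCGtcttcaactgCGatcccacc
Olfr1128: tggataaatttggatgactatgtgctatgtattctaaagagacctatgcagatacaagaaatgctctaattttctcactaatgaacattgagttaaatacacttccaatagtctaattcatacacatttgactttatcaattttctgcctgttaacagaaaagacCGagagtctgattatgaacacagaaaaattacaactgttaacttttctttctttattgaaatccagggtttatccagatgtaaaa
Olfr902: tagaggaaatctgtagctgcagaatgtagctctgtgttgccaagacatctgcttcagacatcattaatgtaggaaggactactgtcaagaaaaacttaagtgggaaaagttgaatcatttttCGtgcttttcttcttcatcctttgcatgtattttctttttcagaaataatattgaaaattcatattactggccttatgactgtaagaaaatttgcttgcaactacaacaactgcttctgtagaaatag
The GC percent of these 250 bases was 36.4% and 38.8% for the pair beside the globins, 30.8% for Olfr1128 and 34.4% for Olfr902, against a median of 52.8% before other genes. These positions are on another build than the probes and were not matched to them. The scanner files give probe positions and no gene names or sequences, so no gene is named at a member below, the label of the windows was not checked against genes, and the tissue could not be checked against marker genes.

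The value of a probe was the log2 ratio of MeDIP over input signal, with each array's median over its non-control probes set to 0. Signal strength takes the place of depth on an array. Median input signal was 24.9 to 41.9 units on the glucose intolerance arrays and 53.9 to 93.8 units on the normal tolerance arrays. The glucose intolerance arrays were scanned together, normal tolerance replicate 1 alone, and replicates 2 and 3 together, so scan and group cannot be told apart. Glucose intolerance replicate 1 and normal tolerance replicate 1 had the widest spread of ratios over all kept probes, with SDs of 1.38 and 1.51, against 1.03 to 1.17 on the other 4 arrays.

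The members were dimmer and longer than other probes. Input signal was well above background for 45.9% to 74.6% of members on the 6 arrays, against 72.0% to 93.1% of the 163543 other autosomal probes. MeDIP signal was well above background for 44.4% to 53.7% of members, against 76.9% to 84.1%. The chromosome 2 window was the dimmest on every array in both channels, with input detected for 39.2% to 69.1% of its probes and MeDIP for 36.8% to 46.7%. The chromosome 7 window had the highest detection, with 55.3% to 82.5% for input and 55.2% to 64% for MeDIP. Input was detected for fewer probes with glucose intolerance (39.2% to 42.0% on chromosome 2) than with normal tolerance (56.7% to 69.1%), in the other windows and the other autosomal probes too. Its part in the group comparison was not tested.

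**Figure D1:**
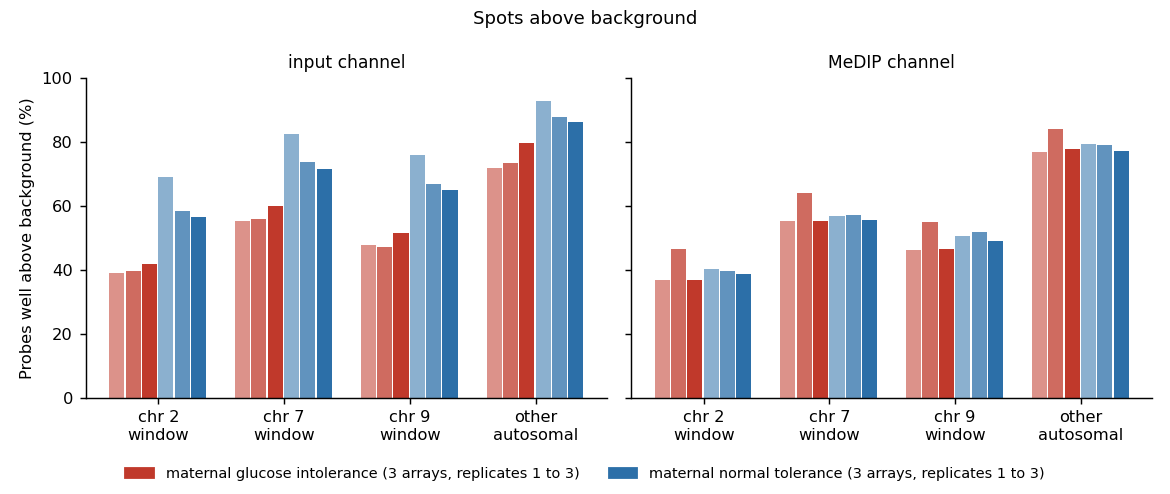
Percent of probes whose spot was well above background in the input channel (left) and the MeDIP channel (right), with 1 bar per array for each window and for all other autosomal probes. In every panel the 3 windows stand below the other autosomal probes, and the chromosome 2 window is lowest, at 36.8% to 46.7% for MeDIP.

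Probes on this array are 45 to 60 nt long. The maximum length of 60 nt was reached by 54.8% of the members on chromosome 2, 37.0% on chromosome 7 and 44.3% on chromosome 9, against 12.2% of other autosomal probes. The minimum of 45 nt was reached by 6.94%, 19.8% and 12.4%, against 51.2%. Members were tiled in 491 runs of neighbouring probes, with a median of 8 probes to a run and 208 bp between starts, against 209 bp in the rest of the autosomes.

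Levels were read from the probes whose input signal was well above background on all 6 arrays. This kept 577 members on chromosome 2, 517 on chromosome 7 and 360 on chromosome 9, or 1454 in all (40.7%), against 67.3% of the other autosomal probes. The other 2120 members gave no level here, so the levels describe the brighter members and not whole clusters.

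All 3 windows had lower MeDIP over input ratios than the rest of the autosomes on every array. In the chromosome 2 window the mean log2 ratio of the kept probes on the 3 glucose intolerance arrays, in replicate order, was -0.96, -0.58 and -0.77, while the 3 normal tolerance arrays gave -1.23, -0.72 and -0.75. In the chromosome 7 window the same 6 arrays gave -0.72, -0.50, -0.67, -0.92, -0.62 and -0.62. The chromosome 9 window gave -0.77, -0.50, -0.68, -1.04, -0.66 and -0.67. The other autosomal probes lay far higher, at -0.13, -0.06, -0.15, -0.28, -0.19 and -0.26 in the same order. Normal tolerance replicate 1 was lowest in every window, glucose intolerance replicate 2 was highest, and the groups overlapped in all 3.

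Measured against the other autosomal probes of the same array, the chromosome 2 window was lower by a mean of 0.65 log2 units (-0.65 ± 0.19, SD over 6 arrays), a ratio 1.57-fold lower. The chromosome 7 window stood at -0.50 ± 0.10 (1.41-fold lower) and the chromosome 9 window at -0.54 ± 0.14 (1.45-fold lower). Each window was lower on 6 of 6 arrays, with p = 0.03125 in an exact two-sided sign-flip permutation test over the 6 arrays, the smallest p that 6 arrays allow, and 0.03125 after Benjamini-Hochberg adjustment over the 3 windows. The deficit was largest on glucose intolerance replicate 1 and normal tolerance replicate 1 (-0.82 and -0.95 on chromosome 2), which are also the arrays with the widest spread of all probes. The smallest deficit of each window was on normal tolerance replicate 3, at -0.49 on chromosome 2, -0.36 on chromosome 7 and -0.40 on chromosome 9. In this bulk tissue, fewer cells with methylated DNA, less methylation per cell and fewer CG sites to methylate cannot be told apart by these ratios. Probes of different sequence also differ in level by themselves, so these are statements about these probes.

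**Figure D2:**
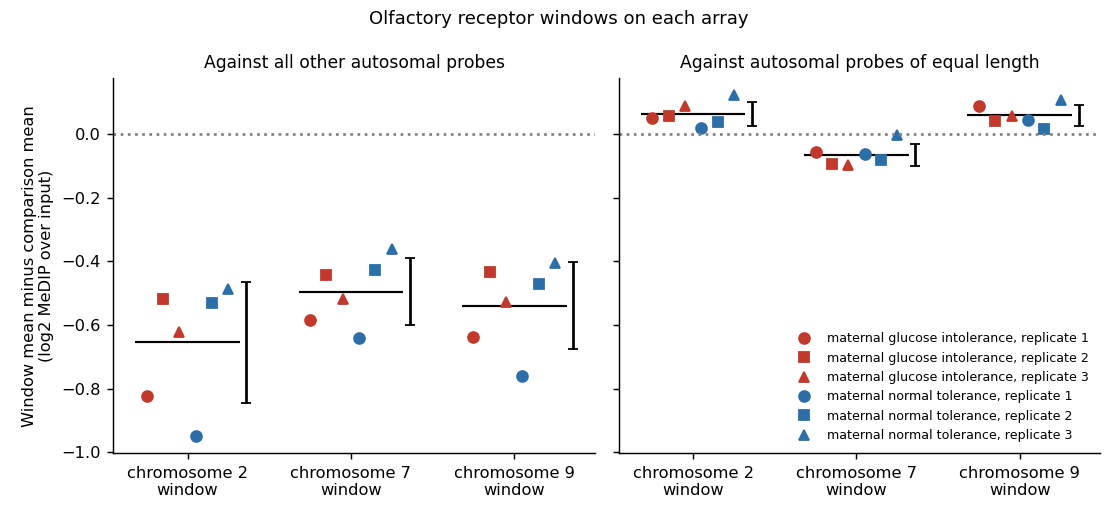
Window mean minus the mean of comparison probes on the same array, in log2 MeDIP over input, for each of the 6 arrays (points), with the mean (horizontal line) and SD (bar). Against all other autosomal probes (left) every point lies below 0; against autosomal probes of equal length (right) the points lie between -0.10 and 0.12.

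Both channels were dimmer in the windows. Median log2 input signal of the kept members minus that of the other kept autosomal probes was -0.52 on chromosome 2, -0.25 on chromosome 7 and -0.38 on chromosome 9 (means over 6 arrays). For MeDIP signal the gap was wider, at -1.30, -0.88 and -0.96, and this larger gap gave the lower ratio. Since MeDIP signals near background hold only an upper bound, the levels were also computed with such spots set to the dimmest MeDIP signal that was well above background on their array. The windows then lay at -0.56, -0.45 and -0.48 for chromosomes 2, 7 and 9. With only probes above background in both channels on every array, they lay at -0.38, -0.37 and -0.38, and the chromosome 2 deficit was then smaller by more than 1.5 times. Normexp background correction with an offset of 50 also shrank them, to -0.37, -0.29 and -0.33.

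The regions next to the windows did not share one level. Probes within 1 Mb on either side lay at 0.03 ± 0.03 relative to other autosomal probes for chromosome 2 (243 probes) and at 0.03 ± 0.06 for chromosome 9 (137 probes). Beside the chromosome 7 window the 308 flanking probes stood at -0.30 ± 0.05. Against the other probes of its own chromosome the chromosome 7 window was lower by less, at -0.27, while the chromosome 2 and chromosome 9 windows stood at -0.69 and -0.61. The beta globin interval inside the chromosome 7 window, which encodes the oxygen-carrying chains of red cells, had 21 kept probes of 44. Its level was -0.21 ± 0.10, between the window that surrounds it and the other autosomal probes. Its probes were between them in length as well: 22.7% were 60 nt long, against 37.0% and 12.2%. The levels of the flanks and of the globin interval were not adjusted for probe length.

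Between windows, chromosome 2 was the lowest. Chromosome 2 minus chromosome 7 was -0.16 ± 0.09 and chromosome 2 minus chromosome 9 was -0.12 ± 0.06, below 0 on 6 of 6 arrays each (exact two-sided sign-flip permutation test, p = 0.03125, 0.0469 after adjustment over the 3 pairs). Chromosome 9 minus chromosome 7 was -0.04 ± 0.04, below 0 on 5 of 6 arrays, which missed the threshold (exact permutation p = 0.0625, adjusted 0.0625). With both channels above background the first of these differences was -0.02 (exact permutation p = 0.5625) and the second -0.0040, so neither passed, and under normexp the second was -0.04 and did not pass (exact permutation p = 0.125), while the first was -0.08. With no filter on dim input they were -0.059 and -0.055.

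The level of a probe followed its length, in the windows and outside them. Among other autosomal probes the mean log2 ratio was 0.10 ± 0.09 (SD over 6 arrays) at 45 to 49 nt, -0.86 ± 0.21 at 50 to 54 nt, -1.37 ± 0.33 at 55 to 59 nt and -1.94 ± 0.42 at 60 nt. The chromosome 2 window went from -0.27 through -0.76 and -1.09 to -1.76 over the same classes. The chromosome 7 window went from -0.20 through -0.96 and -1.32 to -1.62, and the chromosome 9 window from -0.25 through -0.76 and -1.05 to -1.55. Each window thus spanned less than the rest of the autosomes: it was lower in the shortest class and higher in the longest. Length classes and the adjustment for length were chosen after seeing the data.

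**Figure D3:**
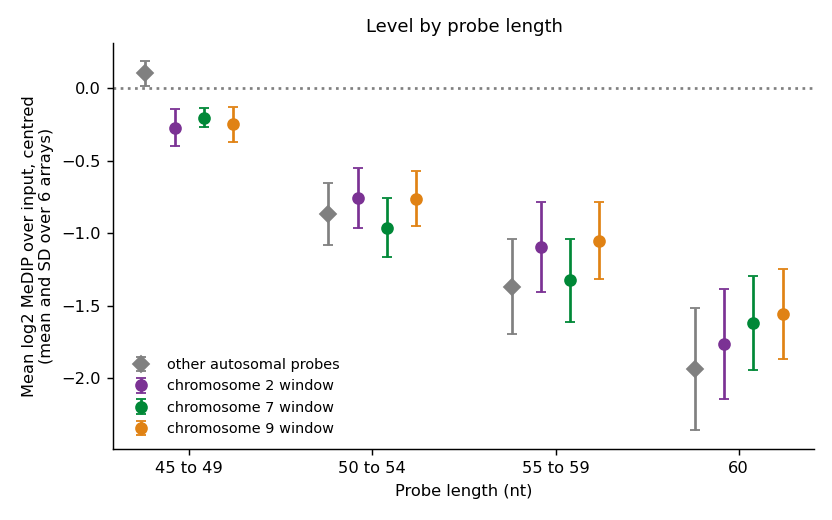
Mean log2 MeDIP over input of kept probes by probe length (nt), for each window and for all other autosomal probes; points are means and bars SDs over 6 arrays. At 45 to 49 nt the windows (-0.20 to -0.27) lie below the other probes (0.10), and at 60 nt they lie above them (-1.55 to -1.76 against -1.94).

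Among probes of 45 to 49 nt, 216, 286 and 165 members were kept on chromosomes 2, 7 and 9. They lay below other autosomal probes of that length class by -0.37 ± 0.15, -0.31 ± 0.07 and -0.35 ± 0.11, on 6 of 6 arrays each (exact sign-flip permutation test, p = 0.03125, adjusted 0.0375 over 12 tests). On chromosome 2 the 6 differences were -0.50, -0.29, -0.34, -0.61, -0.28 and -0.23. In this class the share of probes kept was 77.4%, 79.9% and 78.9% in the windows and 79.1% elsewhere, so the filter on dim input took nearly equal shares. The mix of lengths inside the class differed. Probes of 45 nt were 6.94%, 19.8% and 12.4% of all members, while the class was 16.5%, 34.9% and 24.3%. Elsewhere they were 51.2% of probes and the class 67.3%. The class thus held a smaller share of 45 nt probes in the windows, and its part in these differences was not tested.

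Among probes of 60 nt the difference had the other sign. Members lay above other autosomal probes of 60 nt by 0.18 ± 0.09, 0.32 ± 0.13 and 0.38 ± 0.11 on chromosomes 2, 7 and 9, on 6 of 6 arrays each (exact permutation p = 0.03125, adjusted 0.0375). Only 12.2%, 17.9% and 17.3% of the members of this length were kept, against 23.4% elsewhere, so these values describe a small bright share of the long probes. At 50 to 54 nt the chromosome 2 window differed by 0.11 and the chromosome 7 window by -0.10, each with 1 sign on 6 of 6 arrays (adjusted 0.0375 by the same exact permutation test). Chromosome 9 stood at 0.10 ± 0.07, higher on 5 of 6 arrays, and did not pass (exact permutation p = 0.0625, adjusted 0.0682). At 55 to 59 nt chromosomes 2 and 9 were higher by 0.27 and 0.32, and chromosome 7 stood at 0.04 on 4 of 6 arrays (exact permutation p = 0.1875).

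When each probe was set against the mean of other autosomal probes of its own length in nt, most of the deficit was gone and its sign turned in 2 windows. The chromosome 2 window stood at 0.06 ± 0.04, the chromosome 9 window at 0.06 ± 0.03 and the chromosome 7 window at -0.07 ± 0.04, each with 1 sign on 6 of 6 arrays (exact permutation p = 0.03125). The order of the windows turned as well, with chromosome 2 above chromosome 7 by 0.13 ± 0.04 and chromosome 9 above chromosome 7 by 0.12 ± 0.02. Chromosomes 2 and 9 differed by 0.0039 ± 0.03 (exact permutation p = 0.78125).

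The sign of what remained varied with the probes and the source of values. With no filter on dim input the length-adjusted levels were 0.20, 0.0080 and 0.14 for chromosomes 2, 7 and 9. With both channels above background they were -0.01, -0.15 and -0.08. From the authors' deposited table they were -0.11, -0.14 and -0.11. In the same settings the levels before adjustment were -0.53, -0.47 and -0.47 with no filter, -0.38, -0.37 and -0.38 with both channels above background, and -0.57, -0.42 and -0.49 from the deposited table. The adjustment thus moved every window up in each setting, least on chromosome 7 with both channels above background, from -0.37 to -0.15. Base composition of the probes, which the files do not hold, was not analysed here, and its part in these levels was not tested.

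The low level ran along the whole of each window. In steps of 0.25 Mb, each with at least 10 kept probes, all 21 steps on chromosome 2, 12 on chromosome 7 and 11 on chromosome 9 had a mean below that of other autosomal probes (-0.18 over 6 arrays), and 20, 12 and 9 of them were below it on every array. The lowest step on chromosome 2 was the first, at -1.39 ± 0.27. On chromosome 7 it began 2.25 Mb into the window, at -1.19 ± 0.19, and on chromosome 9 it began 0.5 Mb in, at -1.25 ± 0.26. The highest steps nearly reached the level of the other autosomal probes: -0.19 ± 0.07 at 3.5 Mb on chromosome 2 and -0.26 ± 0.06 at the far end of chromosome 9. The highest step on chromosome 7 was the first, at -0.42 ± 0.09.

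Probe length varied along the windows too. The lowest step of chromosome 2 stayed low after adjustment for length, at -0.76, and so did that of chromosome 7, at -0.62, and that of chromosome 9, at -0.27. The step at 3.5 Mb on chromosome 2 stood at 0.46 after adjustment, and the step at 1.75 Mb on chromosome 9 was the highest there, at 0.49. At the far end of chromosome 9 only 10.2% of members were 60 nt long, and the adjusted level was -0.01. Single steps therefore lay well above and well below probes of equal length, in windows whose mean was near them.

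**Figure D4:**
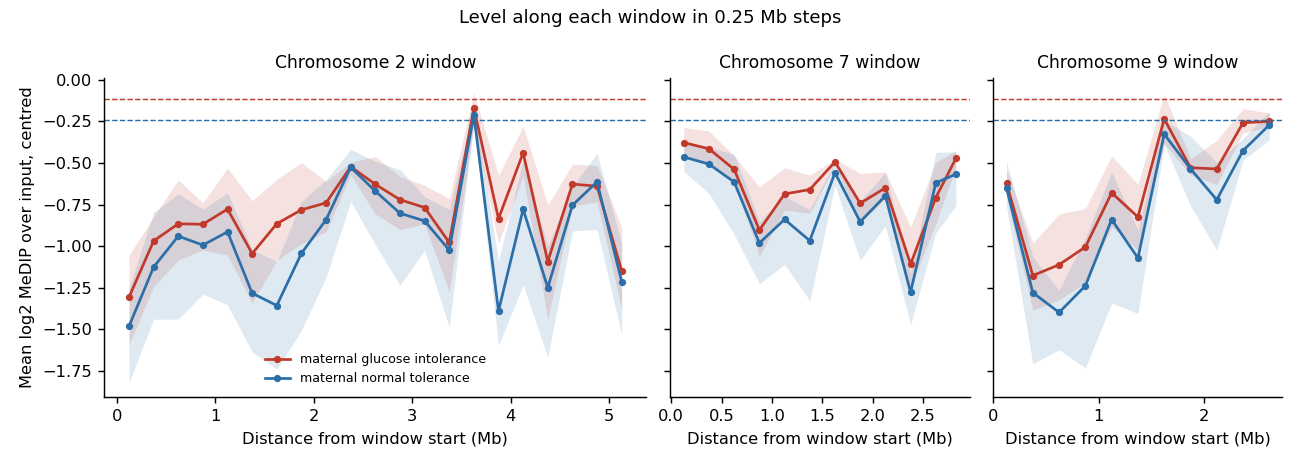
Mean log2 MeDIP over input of kept probes in steps of 0.25 Mb, by distance from the window start (Mb), for each group; lines are means of 3 arrays, shading spans the lowest to the highest array, and dashed lines are the group means of other autosomal probes (-0.12 and -0.24). Nearly all steps lie below the dashed lines, and the 2 groups follow the same course.

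Runs of at least 3 kept probes with starts at most 500 bp apart gave levels for 181 places in the windows, 61 on chromosome 2, 74 on chromosome 7 and 46 on chromosome 9, out of 18562 on the array. The median run stood at -0.65, -0.55 and -0.44 in these windows, against -0.03 for runs elsewhere on the autosomes. Only 26 member runs (14.4%) had a mean above 0, against 47.7% elsewhere, and 60 (33.1%) lay below -1, against 9.76%. On every array the ratio was above 0 for 14 member runs (7.73%, against 29.4%) and below 0 for 117 (64.6%, against 35.6%). The SD between runs was 0.69 for member runs and for runs elsewhere. Member runs held fewer kept probes, with a median of 3 against 5 elsewhere, so these SDs do not compare runs of equal size. After adjustment for probe length the median member run stood at 0.04 and 96 of 181 (53.0%) lay above 0, against a median of 0.06 and 55.6% elsewhere.

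The highest member run was chr2:86154950-86155402, with 3 probes and a level of 1.1, 0.81 and 0.74 on the glucose intolerance arrays and 0.80, 0.92 and 0.43 on the normal tolerance arrays. After adjustment for length it stood at 1.13, and its probes lay between 0.06 and 1.97. It was not the highest by that measure: adjusted levels of runs reached 1.17 on chromosome 2 and 1.69 over all windows. The other high run of that window, chr2:85036363-85036826, averaged 0.45 and lay within the step that had the lowest mean of the window, so high and low runs were close neighbours. On chromosome 7 the highest runs were chr7:109872514-109872963 (0.50) and chr7:111701418-111701873 (0.45). On chromosome 9 they were chr9:40140121-40141421, with 6 probes of 45 nt (0.47), and chr9:39998608-40000372, with 8 probes (0.32), both in the last step of the window.

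The lowest member run was chr7:110400534-110401276, with 4 probes and a level of -3.24, -1.55 and -2.84 on the glucose intolerance arrays and -3.65, -2.90 and -2.85 on the normal tolerance arrays. Its adjusted level was -2.23, so it lay far below probes of its length on these arrays, and MeDIP was well above background on 8 of 12 spots with glucose intolerance and 7 of 12 with normal tolerance. The next lowest on chromosome 7 was chr7:111925609-111926286 at -2.59. The lowest on chromosome 2 were chr2:89561767-89562226 (-2.17) and chr2:85193582-85194914 (-2.02), and on chromosome 9 they were chr9:38016445-38017025 (-2.20) and chr9:38454618-38455994 (-1.88). MeDIP was well above background on 6 of 12 spots in each group in the second chromosome 7 run. In the chromosome 2 pair it was so on 7 and 5 of 9 spots and on 13 and 7 of 15, and in the chromosome 9 pair on 6 of 9 in each group and on 11 and 9 of 15 (glucose intolerance first). The other spots bound the MeDIP signal only from above, so these levels and their order are not exact.

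The arrays ranked the members alike. Across the 1454 kept members, which are probes and not independent replicates, pairs of arrays correlated at r = 0.85 to 0.93 within a group and 0.73 to 0.91 between groups. Across the 110087 other autosomal probes these ranges were 0.87 to 0.95 and 0.76 to 0.93.

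No difference between the groups was detectable in the windows as a whole. Group means of the window level were -0.77 ± 0.19 for glucose intolerance and -0.90 ± 0.29 for normal tolerance on chromosome 2 (SD, n = 3 each). They were -0.63 ± 0.11 and -0.72 ± 0.17 on chromosome 7, and -0.65 ± 0.14 and -0.79 ± 0.22 on chromosome 9. Other autosomal probes moved too, at -0.12 ± 0.05 and -0.24 ± 0.05. Relative to them the group difference, glucose intolerance minus normal tolerance, was 0.0023 ± 0.17 (SE) on chromosome 2, -0.04 ± 0.09 on chromosome 7 and 0.01 ± 0.12 on chromosome 9. The exact two-sided permutation test of 3 arrays against 3, which cannot go below 0.1, gave p = 1, 0.7 and 1, and 1 for each after adjustment over the 3 windows. The signs on chromosomes 2 and 9 turned under several other settings, and with 3 arrays a group this test can neither pass the threshold nor show that the groups are alike.

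Group differences were also computed in each channel of the windows. Relative to other autosomal probes the difference in median log2 input signal was -0.06, -0.01 and -0.06 for chromosomes 2, 7 and 9, and that in MeDIP signal was -0.09, -0.01 and 0.02. The exact permutation p-values of these 6 comparisons lay between 0.6 and 1, and each was 1 after adjustment. With 3 arrays a group this test cannot go below 0.1, so none of them could have passed the threshold.

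Run by run, no member passed the adjusted threshold of 0.05. Among the 181 member runs limma called 29 at an unadjusted p under 0.05 (16%), close to the 15.8% of all 18562 runs. Of these 23 were higher with glucose intolerance (12.7%, against 13.3% of all runs) and 6 lower (3.31%, against 2.51%). After Benjamini-Hochberg adjustment over all runs 0 member runs were called, and 0% of all runs in either direction. Values of the 2 groups did not overlap in 19 member runs that were higher with glucose intolerance (10.5%, against 17.5% of all runs) and in 8 that were lower (4.42%, against 4.55%). The unadjusted shares of the members were close to those of the whole array, and the share of runs higher without overlap was smaller. Leaving out 1 array moved the unadjusted count of 29 to 16 without glucose intolerance replicate 2 (8.84%, against 9.06% of all runs). It was 18 (9.94%) without glucose intolerance replicate 3 (against 10.3%) or without normal tolerance replicate 3 (against 8.41%), and 44 without normal tolerance replicate 1 (24.3%, against 27.8%).

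The split between higher and lower depended on the scaling. The median run of the whole array differed by 0.12 between the groups, and the median member run by 0.10. With loess normalization within arrays the shift over all runs was -0.03 and the member runs at an unadjusted p under 0.05 were 9 higher (4.97%, against 4.84% of all runs) and 19 lower (10.5%, against 8.53%). Quantile normalization gave 20 higher (11.05%, against 10.4%) and 28 lower (15.5%, against 8.20%). Centring on the tested autosomal probes gave 12 (6.63%, against 6.98%) and 13 (7.18%, against 4.92%), and raising dim MeDIP spots gave 11 (6.08%, against 6.27%) and 14 (7.73%, against 5.83%). In these last 3 settings the members split toward lower and the whole array toward higher. Normexp background correction gave 41 higher (22.7%, against 34.1%) and 1 lower (0.552%, against 0.873%). With no filter on dim input 31 of 491 runs were higher (6.31%, against 12.8%) and 51 lower (10.4%, against 2.93%). Without normal tolerance replicate 1 they were 21 (11.6%, against 21.6%) and 23 (12.7%, against 6.22%). No direction over the member runs can therefore be given.

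Probe by probe, 1439 members had enough values to be tested, of 113885 on the array. At an unadjusted p under 0.05 limma called 266 members (18.5%, against 16% of all probes). Of these 168 were higher with glucose intolerance (11.7%, against 10.4%) and 98 lower (6.81%, against 5.59%). After adjustment over all probes 0 members were called, 0% of all probes were called higher and 0.000878% lower (1 probe, not a member). Without normal tolerance replicate 1 the adjusted count was 67 members, 22 higher (1.56%, against 1.93% of all probes) and 45 lower (3.20%, against 1.97%). Without any other array it was 0. The unadjusted count of 266 became 403 without that array (28.6%, against 29.1%), 173 without glucose intolerance replicate 2 (12.2%, against 10.04%) and 176 without normal tolerance replicate 3 (12.6%, against 8.93%).

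The member run with the lowest p was chr2:89507552-89508002, of 3 probes. It stood at -0.22, 0.22 and 0.06 with glucose intolerance and at -1.03, -1.36 and -0.96 with normal tolerance, with no overlap. The difference was 1.14 ± 0.16 (SE) and 1.01 beyond the shift of all runs, with an adjusted p of 0.168 by limma. Over the alternatives the adjusted p ran from 0.0123 with the replicate number as a block to 0.849 with scan as a random block. It also passed the threshold with the deposited table (0.0209), under normexp (0.0268) and with a trend and robust options in eBayes (0.0198). MeDIP signal was well above background on 9 of 9 spots with glucose intolerance and on 4 of 9 with normal tolerance. With both channels above background on every array it kept fewer than 3 probes and could not be tested. The difference was 0.71 with dim MeDIP spots raised, 0.73 with the deposited table, 0.54 with no filter on dim input and 0.51 under normexp. Its first probe, chr2:89507552-89507601, was also the member probe of the window with the lowest p, at 0.40, 0.90 and 0.17 against -1.57, -1.50 and -1.55 (difference 2.03 ± 0.24, limma adjusted p = 0.103).

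**Figure D5:**
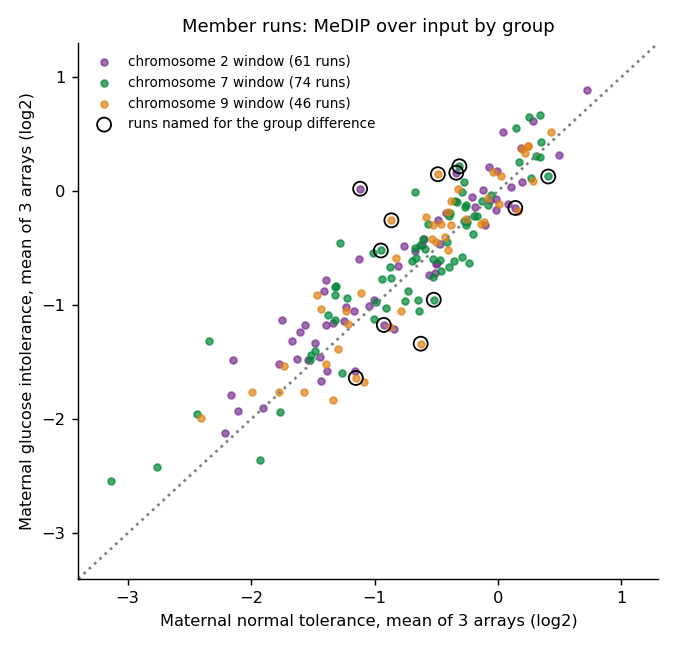
Mean log2 MeDIP over input of each member run with maternal glucose intolerance (vertical axis) against normal tolerance (horizontal axis), each the mean of 3 arrays; circled runs are those with the lowest p in each direction and window, and the dotted line marks equal values. Most of the 181 runs lie close to the line, 118 of them above it, and chr2:89507552-89508002 is the circled run at 0.02 against -1.12.

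The other runs named for the group difference on chromosomes 2 and 7 differed by less. On chromosome 2, chr2:88596339-88597087 was at 0.05, 0.20 and 0.23 against -0.49, -0.09 and -0.43 (difference 0.50, limma adjusted p = 0.237), and its probes differed by -0.03, 0.35 and 1.17. The runs with the lowest p on the lower side there, chr2:87736363-87736823 and chr2:88024894-88025362, differed by -0.29 and -0.25. On chromosome 7, chr7:109901950-109902659 was at 0.17, 0.14 and 0.33 against -0.26, -0.47 and -0.21, with no overlap (difference 0.53, limma adjusted p = 0.220), and all its MeDIP spots were well above background. This run passed the threshold with the deposited table (adjusted p = 0.0294), under normexp (0.0355) and with the replicate number as a block (0.0439). A neighbour in rank, chr7:110732307-110732974, differed by 0.43 and passed under normexp (limma adjusted p = 0.0384). On the lower side chr7:110591180-110591839 was at -0.99, -0.88 and -1.0 against -0.73, -0.38 and -0.45 (difference -0.43, limma adjusted p = 0.240), and chr7:111254678-111255133 differed by -0.28. Single probes differed by -1.48, -0.24 and 0.42 in the first of these runs and by -0.73, -0.09 and -0.02 in the second.

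On chromosome 9 all 4 runs named for the group difference turned their sign when dim input spots were kept. The 2 runs with the lowest p on the higher side shared an adjusted p of 0.212 by limma. The run chr9:39808336-39808803 was at 0.17, 0.04 and 0.24 against -0.64, -0.31 and -0.51, a difference of 0.63. Here the input signal moved more than the MeDIP signal, by -1.19 against -0.68 on the log2 scale with each channel centred, so the higher ratio went with less input. The run chr9:38175000-38175540 differed by 0.61 and held the probe chr9:38175495-38175540, at 0.15, 0.31 and 0.0033 against -1.36, -1.36 and -1.49 (limma adjusted p = 0.103). That probe differed by 1.56, and the run's other probes by 0.23 and 0.03. On the lower side chr9:37519576-37520236 differed by -0.49, and chr9:38399088-38399663 by -0.71 with overlapping groups, at -1.52, -1.32 and -1.18 against -1.20, -0.37 and -0.31. In the first, MeDIP was well above background on 6 of 9 spots with glucose intolerance and 5 of 9 with normal tolerance. In the second it was so on 6 and 9 of 9. The other spots bound the MeDIP signal only from above, and with dim MeDIP spots raised each run differed by -0.72. Single probes of chr9:37519576-37520236 differed by -1.54, -0.19 and 0.27, while those of chr9:38399088-38399663 were all lower.

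The remaining member probes with the lowest p in their window and direction were spread over all 3 windows. The probe chr7:110134091-110134150 was at -1.08, -0.46 and -1.16 against -2.95, -2.80 and -3.04, but its MeDIP signal was well above background on 2 glucose intolerance arrays and on no normal tolerance array. Its measured difference of 2.03 (limma adjusted p = 0.103) was 1.06 when the normal tolerance spots were set at the dimmest MeDIP signal counted as well above background on each array. Since 1 glucose intolerance spot was not well above background either, no bound is given. On the lower side the probes were chr2:90161913-90161961 (difference -1.27), chr7:110591780-110591839 (-1.48), which lies in a run given above, and chr9:37892325-37892384 (-1.23). Their adjusted p-values by limma lay between 0.115 and 0.123. For the chromosome 7 probe MeDIP was well above background on 2 of 3 glucose intolerance spots, so its difference is not exact.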

How the data were processed

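Per the file headers, the deposited scanner files were written by Agilent's Feature Extraction (version 11.0.1.1, ChIP protocol), with probe positions on mm9. Per the labels, MeDIP DNA carried Cy5 and input DNA Cy3 on all 6 arrays, so dye effects do not cancel. The processed intensity values in the deposited files are background-subtracted and dye-normalized by a linear method, per the file headers. The deposited log10 ratio was a check only: it lay within 0.01 log2 units of the ratio used for 96.7% of spots. A series table of log2 values by the authors was used as an alternative. Its background treatment, normalization and centring are not given in the sources used here. Array medians of it were 0.027 to 0.038, and its correlation with unsubtracted log2 Cy5 over Cy3 ratios, 0.92 to 0.94, set its direction as MeDIP over input.

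Each array's log2 ratios of processed signals were centred on the median of its 174638 non-control probes, without loess or quantile normalization. Values of non-uniformity outliers (1.77% of spots) were dropped, and a probe was kept only if its input was well above background on all 6 arrays. Runs joined at least 3 kept probes with starts at most 500 bp apart. Runs with a value on every array, and probes with at least 2 values per group, were fitted with limma 3.58.1 in R 4.3.3 (functions lmFit and eBayes). The fits covered the whole array, and the method was tested on simulated data. Adjustment was by Benjamini-Hochberg over all runs or all probes. The threshold was 0.05. Windows were compared over arrays by exact permutation tests in Python 3.11.15. The number of arrays limits the precision.

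The members, lists and tests were chosen with earlier results of these data known. Named runs were, in each window, the 2 with the highest and the 2 with the lowest mean over 6 arrays, and, for either direction of the group difference, the 2 of lowest p. Named probes were those of lowest p by window and direction. Normexp used median signals, since the files hold no mean signals. The slide was replaced by the scan as a block. The labels do not say if replicate numbers pair the samples. Over runs, deviations of same-numbered arrays from their group means correlated at 0.57, 0.54 and 0.04 for replicates 1, 2 and 3. Glucose intolerance replicate 1 with normal tolerance replicate 2 gave -0.58, and glucose intolerance replicate 2 with normal tolerance replicate 1 gave -0.51. With 3 arrays a group these values cannot settle a pairing.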

Additional observations from a re-analysis of the deposited data

How the results depend on the processing

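The lower level of each window against other autosomal probes kept its sign on every alternative that left probe length aside, from -0.69 to -0.37 on chromosome 2, -0.50 to -0.27 on chromosome 7 and -0.61 to -0.33 on chromosome 9. Leaving out 1 array gave -0.69 to -0.60, -0.52 to -0.47 and -0.57 to -0.49, where 5 arrays cannot go below an exact permutation p of 0.0625. Adjustment for probe length, chosen after seeing the data, turned the sign on chromosomes 2 and 9 (0.063 and 0.059) and of all 3 window differences: 0.13 for chromosome 2 minus 7, 0.0039 for 2 minus 9 and 0.12 for 9 minus 7. With no filter on dim input as well, the length-adjusted levels were 0.20, 0.0080 and 0.14 for chromosomes 2, 7 and 9, and with both channels above background chromosome 2 stood at -0.013.

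Between windows, chromosome 2 minus 9 missed the threshold under normexp (-0.037) and with both channels above background (-0.0040), and so did 2 minus 7 in the second case (-0.015). Chromosome 9 minus 7 passed it under normexp (-0.040), quantile normalization (-0.040) and with the deposited table (-0.070), and was 0.0041 as a mean of run means. Leaving out 1 array gave -0.18 to -0.13 for 2 minus 7, -0.13 to -0.10 for 2 minus 9 and -0.054 to -0.028 for 9 minus 7.

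The group difference of the windows turned its sign on chromosome 2 under normexp (-0.037), quantile normalization (-0.038), the deposited table (-0.082), no filter on dim input (-0.16), both channels above background (-0.036), dim MeDIP spots raised (-0.022) and the mean of run means (-8.4e-05). On chromosome 9 it turned under normexp (-0.0030), quantile normalization (-0.022), the deposited table (-0.043), no filter (-0.089) and run means (-0.078). Leaving out 1 array gave -0.14 to 0.087, -0.12 to 0.018 and -0.095 to 0.083 on chromosomes 2, 7 and 9. The cause of these changes was not tested.

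Counts of members called are given with their share and, after it, the share of all features. Member runs at an unadjusted p under 0.05 numbered 29, and 48 with quantile normalization (26.5%, 18.6%), 82 of 491 with no filter (16.7%, 15.7%), 18 of 101 with both channels above background (17.8%, 16.6%), 47 of 257 when joined at up to 1000 bp (18.3%, 16.8%) and 8 with scan as a random block (4.42%, 5.21%). After adjustment 0 became 9 with normexp (4.97%, 9.88%), 11 with the deposited table (6.08%, 8.44%) and 2 with trend and robust options in eBayes (1.105%, 0.409%). Member probes at an unadjusted p under 0.05 numbered 266, and 945 of 3559 with no filter (26.6%, 16.4%) and 116 with scan as a random block (8.06%, 5.98%). Their adjusted count of 0 became 54 with normexp (3.75%, 6.07%), 42 with quantile normalization (2.92%, 1.51%), 70 with the deposited table (4.81%, 5.50%), 5 with both channels above background (0.469%, 0.215%) and 16 with trend and robust options in eBayes (1.11%, 0.703%). A block for the replicate number gave other counts: the unadjusted count of member runs was 48 (26.5%, 25.9%), and the adjusted counts were 8 runs (4.42%, 4.27%) and 82 probes (5.70%, 3.69%). The labels do not say if these numbers pair the samples. Leaving out 1 array gave 16 to 44 runs and 173 to 403 probes unadjusted, lowest without glucose intolerance replicate 2 and highest without normal tolerance replicate 1, and 0 to 0 runs and 0 to 67 probes adjusted.

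Among 222 combinations of a named run with a group difference and a setting, 7 turned the sign and 12 passed the adjusted threshold. These runs were named for low p in the same data, so their passes are no separate support. The passes came under normexp, the deposited table, the replicate block and the trend and robust options. Of all runs 9.88%, 8.44%, 4.27% and 0.409% passed there, in that order. Besides the runs whose passes are given above, chr9:39808336-39808803 passed with trend and robust options (limma adjusted p = 0.0480) and the replicate block (0.0379). With the block chr9:38175000-38175540 (0.0376) and chr9:38399088-38399663 (0.0360) passed too. With no filter the runs that turned were chr2:88596339-88597087 (-0.056), chr7:111254678-111255133 (0.18), chr9:39808336-39808803 (-0.064), chr9:38175000-38175540 (-0.15), chr9:37519576-37520236 (0.092) and chr9:38399088-38399663 (0.27), which then hold more and dimmer probes. With normexp it was chr7:110591180-110591839 (0.081). Dim members limit what can be said: 2120 of 3574 had no usable input signal on at least 1 array.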
